A study of Mus musculus with 2 samples.

Results

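The 6 genes Nr4a1, Nr4a2, Nr4a3, Egr1, Egr2 and Egr3 held 34 of the 34610 open chromatin peaks of mouse regulatory T cells (0.0982%). A peak was counted for a gene when its summit lay in the gene body, as the GENCODE M21 annotation draws it, or within 20 kb on either side, a stretch called the locus here. The peaks came from the deposited list that passed a threshold on the irreproducible discovery rate (IDR), which scores whether a peak keeps its rank when peaks are called again. A longer deposited list of 58871 peaks, called pseudoreplicated, held 44 peaks in the same loci, and these included all 34.

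NR4A proteins are orphan nuclear receptors that work without a known natural ligand and bind DNA alone or as pairs, and EGR proteins are zinc finger transcription factors that bind GC-rich sites. Both families are immediate early genes: antigen receptor signals through calcium and the MAP kinases switch them on from factors the cell already holds, among them SRF on CArG boxes, CREB on cyclic AMP response elements (CREs), and MEF2 and NFAT proteins. In regulatory T cells the NR4A receptors are known for sustaining Foxp3 and the lineage, while Egr2 and Egr3 are known for restraining activation of T cells.

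Open chromatin was mapped by ATAC-seq, in which the Tn5 transposase cuts accessible DNA. The regulatory T cells were primary cells of a male mouse aged 4 months from the cross Foxp3CreERT2 x Rosa26YFP, in which the Foxp3 gene drives an inducible Cre and the Rosa26 locus carries a YFP reporter, and the labels give bone marrow haematopoietic cells as their origin. The 2 libraries were technical replicates of 1 biological replicate and the authors called peaks on them together, so 1 group exists, no spread between animals could be given and nothing was tested between conditions. Whether the cells had been stimulated is not given in the sources used here. Of 6 markers of regulatory T cells, 5 had a peak over the 5′ end of the gene (Il2ra, Ctla4, Ikzf2, Cd3e and Cd4), and the exception, Foxp3, had 5 peaks elsewhere in its locus. Of 14 markers of CD8 T, B, myeloid, NK, erythroid and progenitor cells, only Cd8b1 had one.

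The summit sequences that the results turn on are shown first. They were read from the RefSeq assembly GRCm38.p6, which is mm10, and run 5′ to 3′ on the strand of the gene, in lower case with matches to the searched motifs in capitals. Each window spans 200 bp around the summit, shortened where transcribed leader sequence would begin. Shortening left the Nr4a2 summit outside the printed stretch and cut an NF-kB match from the Nr4a1 internal promoter. The Egr2 promoter and the peak 15.33 kb upstream of Nr4a3 are shown for their CArG boxes, the SRF motif.
Egr2 promoter, chr10:67537691-67537868, plus strand: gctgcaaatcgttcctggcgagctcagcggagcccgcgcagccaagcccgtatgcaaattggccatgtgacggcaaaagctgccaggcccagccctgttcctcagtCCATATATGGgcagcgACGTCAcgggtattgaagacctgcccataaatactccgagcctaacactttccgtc
Nr4a3 peak 15.33 kb upstream, chr4:48029719-48029918, plus strand: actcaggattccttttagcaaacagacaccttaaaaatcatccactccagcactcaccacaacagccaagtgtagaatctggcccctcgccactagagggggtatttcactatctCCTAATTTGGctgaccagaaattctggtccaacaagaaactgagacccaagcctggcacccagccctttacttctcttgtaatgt
The strongest Nr4a3 and Nr4a1 peaks and the internal promoters of Nr4a1 and Nr4a2 are shown because these genes carried other matches: NF-kB and RUNX in the Nr4a3 intron, an EGR site with KLF/SP matches and a CRE half-site with a KLF/SP match at Nr4a1, and a full CRE at Nr4a2.
Nr4a3 peak in intron 7, chr4:48074904-48075103, plus strand: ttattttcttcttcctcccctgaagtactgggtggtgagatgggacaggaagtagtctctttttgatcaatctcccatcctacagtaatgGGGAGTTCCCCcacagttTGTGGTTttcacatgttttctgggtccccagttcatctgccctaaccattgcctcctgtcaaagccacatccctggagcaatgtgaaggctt
Nr4a1 internal promoter, chr15:101266709-101266845, plus strand: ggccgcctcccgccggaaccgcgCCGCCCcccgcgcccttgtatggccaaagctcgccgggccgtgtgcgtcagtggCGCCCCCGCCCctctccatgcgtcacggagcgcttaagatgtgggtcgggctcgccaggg
Nr4a1 peak 7.84 kb upstream, chr15:101246327-101246526, plus strand: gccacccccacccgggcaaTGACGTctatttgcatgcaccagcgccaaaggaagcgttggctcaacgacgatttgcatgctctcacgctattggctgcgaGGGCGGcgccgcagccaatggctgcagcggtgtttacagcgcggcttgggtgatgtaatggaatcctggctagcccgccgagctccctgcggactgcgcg
Nr4a2 internal promoter, chr2:57115039-57115117, minus strand: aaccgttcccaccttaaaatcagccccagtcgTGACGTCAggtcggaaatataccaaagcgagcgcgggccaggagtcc

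A CArG box followed at a fixed distance by a CRE half-site was found at the promoters of Egr1, Egr2 and Egr3. The CRE half-site is TGACGT, which reads ACGTCA on the opposite strand. At Egr1, Egr2 and Egr3 a CRE half-site lay in that opposite orientation. It started 16 bp after the start of a CArG box, with 6 bases between the motifs. The Egr1 and Egr3 windows each held a further CRE half-site outside this arrangement. At Egr1 it started 76 bp before the summit, and at Egr3, in the orientation TGACGT, 29 bp before the summit. The spacing was looked for after the single matches had been seen. Over the whole list, 4 of 34610 windows (0.0116%) held this arrangement: the promoters of Egr1, Egr2, Egr3 and Dusp5. The family member Egr4, outside the 6 genes, had 1 peak, over its 5′ end, and its window was not among the 4. Dusp5 encodes a nuclear phosphatase of ERK and is itself an early response gene. The Dusp5 peak had a signal of 15.4 and its summit lay 65 bp from a transcription start site (TSS). The Egr2 and Dusp5 cores, from the CArG box to the CRE half-site, are set side by side.
Egr2 core, chr10:67537797-67537818, plus strand: CCATATATGGgcagcgACGTCA
Dusp5 core, chr19:53529073-53529094, plus strand: CCTTATATGGgcactcACGTCA
The Dusp5 core matched that of Egr2 at 18 of 22 bases. Much of this identity was set by the search, which fixed the CC and GG of the box and the ACGTCA. It also limited the 6 bases inside the box to A or T, so only the 6 bases between the motifs were free. The letters of Egr1 and Egr3 are not shown. The Egr1 core started 23 bp before the summit, and a further CArG box started 45 bp before it. Allowing either order and orientation with at most 20 bp between the motifs, 10 of 34610 windows held a pair, the same 3 EGR promoters among them. In the RefSeq table of promoters (250 bases before to 50 after a start, GRCm38.p6), 4 of 32851 windows held the pair at 16 bp (0.0122%), and they belonged to Egr2 and Dusp5. Nr4a1, Nr4a2, Nr4a3 and Egr2 were matched in that table with 8 windows in all. Egr1 and Egr3 were not matched.

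CArG boxes were found in 5 of the 34 windows (14.7%, exact Clopper-Pearson 95% interval 4.95 to 31.1%), against 1.04% of all peaks. The searched pattern was CC, 6 bases A or T, and GG. The interval treats peaks as independent and covers counting error only, since there were no replicate samples. Of the 5, 3 were the EGR promoters just described and the others lay 2.25 kb upstream of Egr3 and 15.33 kb upstream of Nr4a3. All promoter peaks of the list held the box in 0.876% of cases and all other peaks in 1.14%. In RefSeq promoters the share was 1.63%. The CRE half-site was found in 7 windows (20.6%, interval 8.70 to 37.9%), against 7.09% of all peaks: in the promoters of Egr1, Egr2, Egr3, Nr4a2 and Nr4a3 and in the peaks 2.24 kb upstream of Nr4a3 and 7.84 kb upstream of Nr4a1. The Nr4a3 promoter held 3 copies. By class, the CRE half-site was in 5 of 15 promoter windows, against 10.6% of all promoter peaks. It was in 2 of the 19 others, against 4.80% of all such peaks. The full CRE, TGACGTCA, which contains the CRE half-site, was found once, at the internal promoter of Nr4a2, against 1.81% of all peaks.

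The families' own binding sites were found in few of the windows, at shares that the 34 windows could not tell from those of all peaks. The NR4A monomer site AAAGGTCA was found in 0 of the 34 windows, which allows a share of up to 10.3%, against 1.17% of all peaks. The EGR site, GCGTGGGCG or GCGGGGGCG, was found in 2 windows (5.88%, interval 0.720 to 19.7%), the internal promoter of Nr4a1 and the coding peak of Egr1, against 1.96% of all peaks. The KLF/SP motif GGGCGG, bound by factors of broad use at GC-rich promoters, was found in 9 windows (26.5%), against 26.5% of all peaks. By class, the KLF/SP motif was in 5 of 15 promoter windows, against 52.3% of all promoter peaks. It was in 4 of the 19 others, against 9.68% of all such peaks. Its letters can overlap those of an EGR site, as they do in the internal promoter of Nr4a1.

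Motifs of the other T cell factors were found in 0 to 5 of the windows. AP-1 (TGACTCA or TGAGTCA), the Jun and Fos motif, was found in 0 of the 34 windows, against 7.74% of all peaks and 10.5% of those outside promoters. NFAT (TGGAAA) was found in 4 windows, against 14.3%, and the NF-kB consensus in 5 (14.7%, interval 4.95 to 31.1%), against 5.75%. Of the NF-kB matches, 2 were on opposite strands of a single stretch in the Nr4a3 intron, and 3 of the 5 windows lay at Nr4a1. RUNX (TGTGGTT or TGCGGTT) was found in 3 windows, against 10.6%, and ETS (CCGGAAG) in 3, against 8.55%. For ETS, 2 of the 3 were the promoters of the neighbouring genes Ado and Bin3. The MEF2 consensus was in 0 windows, against 0.468%. TCF/LEF (CTTTGAA or CTTTGAT) was in 2, against 7.74%, the E-box CACGTG in 2, against 6.3%, and the CTCF core in 1, against 9.95%. With 34 windows, the interval around a count of 0 reaches 10.3%, so the shares of AP-1 and MEF2 could not be told from those of all peaks at this number. A match describes letters in a window and is no evidence of binding.

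**Figure D1:**
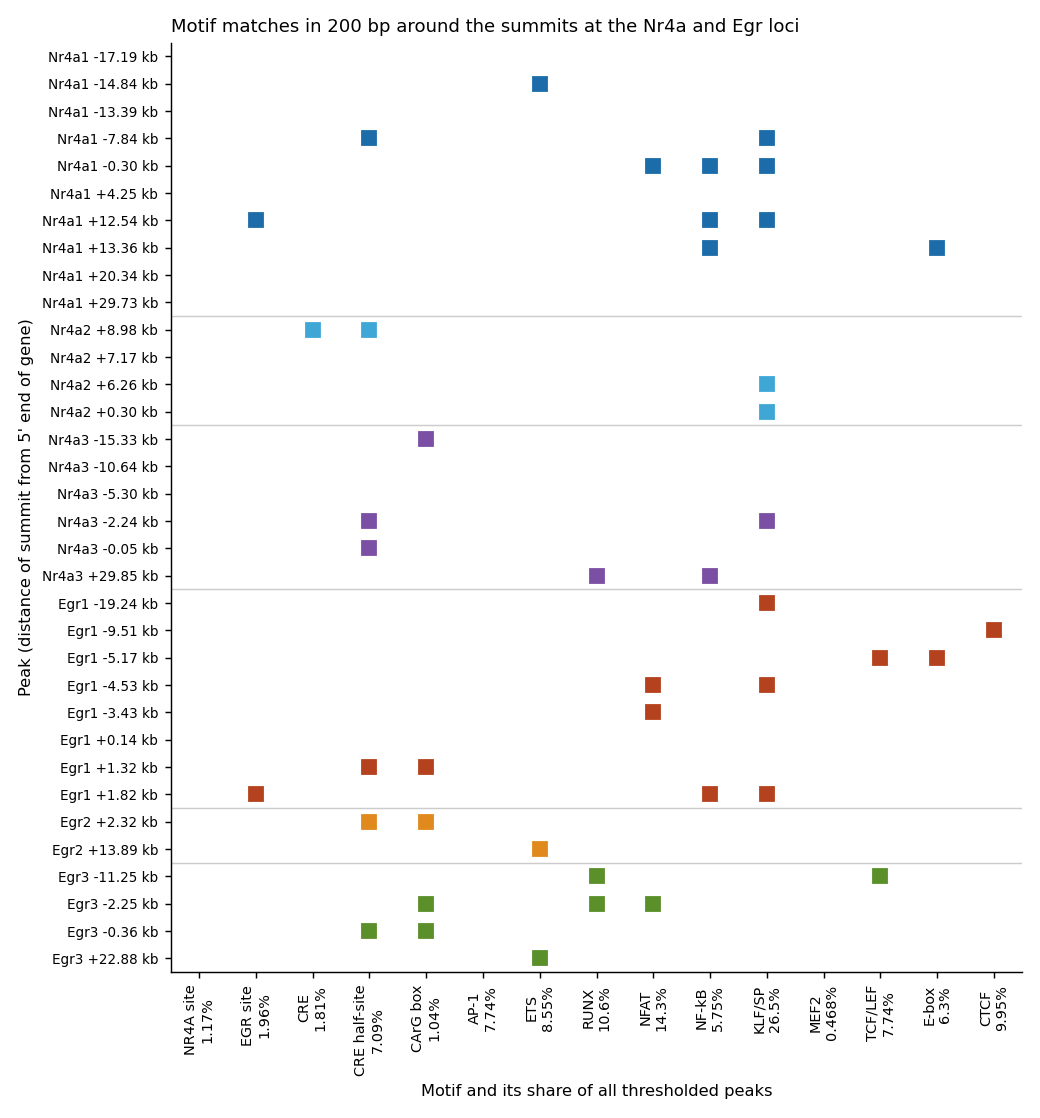
Motif matches (columns, with each motif's share of all 34610 thresholded peaks) in 200 bp around the summits of the 34 peaks (rows, named by gene and distance of the summit from the gene's 5′ end in kb), where a square marks at least 1 match. CArG box and CRE half-site squares stand together in 3 rows, at Egr1 +1.32 kb, Egr2 +2.32 kb and Egr3 -0.36 kb, and the NR4A site, AP-1 and MEF2 columns are empty.

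The loci differed widely in the number of peaks. Nr4a1 had 10, Egr1 8, Nr4a3 6, Nr4a2 and Egr3 4 each, and Egr2 2. The median over 21938 protein-coding genes was 2 peaks, and 25.3% of them had at least 4, as 5 of the 6 genes did. As many peaks as Nr4a1 were found at 2.09% of coding genes, and as many as Egr1 at 4.27%. Set against coding genes with a locus length within 10% of their own, the share with at least as many peaks was 0.407% of 3681 genes for Nr4a1 and 0.821% of 7308 genes for Egr1. It was 11.3% of 2045 genes for Nr4a3, 17.8% of 7304 for Egr3, 25.6% of 4057 for Nr4a2 and 45.9% of 6880 for Egr2. Nr4a1 and Egr1 were thus rich in peaks for their length, and the count at Egr2 was an ordinary one. Counts have no error here, because the 1 pool gives no second count.

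**Figure D2:**
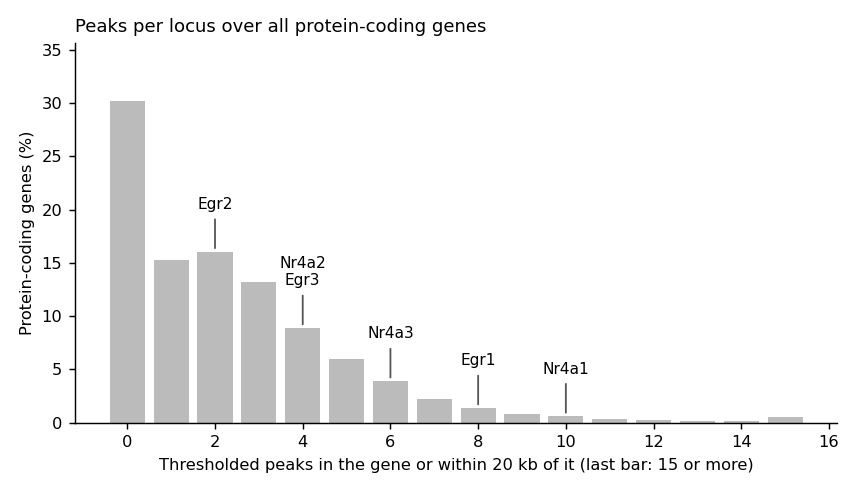
Share of protein-coding genes (bars, percent) by the number of thresholded peaks in the locus, with the last bar holding genes with 15 or more. The 6 genes are marked above their bars: Egr2 at 2, Nr4a2 and Egr3 at 4, Nr4a3 at 6, Egr1 at 8 and Nr4a1 at 10.

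The starts of the genes were mostly open, at annotated starts that were not always the outermost one. A peak covered the 5′ end of 4 of the 6 genes, against 44.6% of coding genes, and some annotated TSS of 5 of the 6, against 50%. Egr2 was open at its principal TSS, 2.39 kb inside the annotated gene, and no peak covered the outermost one. Egr3 had a peak that ended upstream of every annotated start, with its summit 0.36 kb before the 5′ end. All 6 genes had a summit within 1 kb of one of their own starts. Of the 34 peaks, 15 lay within 1 kb of a TSS of any gene and were classed as promoter peaks (44.1%, interval 27.2 to 62.1%), against 39.6% of all peaks. Of these 15, 4 lay at starts of other genes (Atg101, Reep2, Ado and Bin3). Intergenic peaks made up 14 of 34 (41.2%, 24.6 to 59.3%), against 24.5% of all peaks, and introns held 4 (11.8%), against 32.6%.

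**Figure D3:**
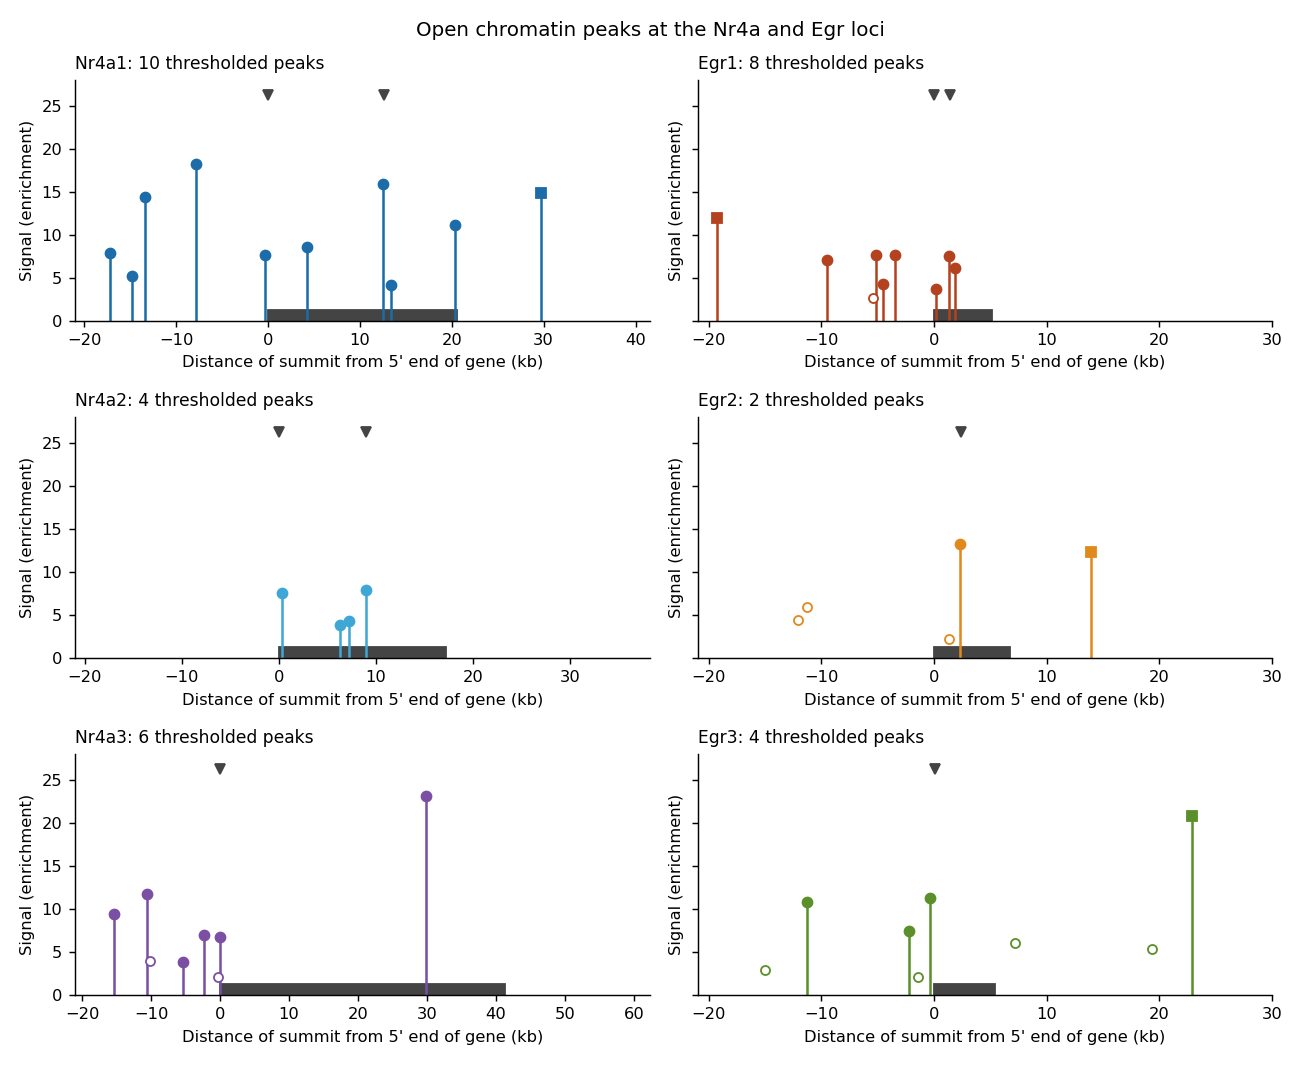
Signal (the authors' enrichment per peak) of each peak against the distance of its summit from the 5′ end of the gene in kb, in the direction of transcription, for the 6 loci. Filled symbols are thresholded peaks, squares among them lie within 1 kb of a TSS of another gene, open circles are peaks of the pseudoreplicated list alone, dark bars are gene bodies and triangles are TSSs of principal transcripts. Nr4a1 carries peaks along its whole locus up to a signal of 18.2, the Nr4a2 peaks all lie inside the gene, and the highest Nr4a3 peak (23.1) stands alone inside the gene.

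Nr4a1, whose product Nur77 reports the strength of antigen receptor signals, lies on the plus strand at chr15:101254269-101274795 (ENSMUSG00000023034.7, mm10). Its 10 peaks had signals from 4.15 to 18.2 with a median of 9.86. The signal is the authors' enrichment of a peak over a background that the sources used here do not name, and it was used within the list only. Upstream, 4 intergenic peaks lay 17.19, 14.84, 13.39 and 7.84 kb before the 5′ end with signals of 7.83, 5.14, 14.3 and 18.2. The one at 7.84 kb, chr15:101246173-101247454, was the strongest of the locus, with a −log10 p of 565 at percentile 93.4 of the list. At the 5′ end of the long transcript a peak had a signal of 7.58. The internal start, 12.58 kb downstream and the only Nr4a1 start in the RefSeq table, was covered by a peak with a signal of 15.9, chr15:101266449-101267324, whose summit lay 37 bp before that start.

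The remaining Nr4a1 peaks were 4 in number. Intron 2 of the long transcript held a peak with a signal of 8.57, and intron 1 of the short transcript held one with a signal of 4.15, the lowest of the locus. The untranslated part of the last exon held one with a signal of 11.1. The peak farthest downstream, with a signal of 14.8, lay at the promoter of Atg101, a gene of the autophagy initiation complex, and cannot be assigned to either gene from these data. Signal at Nr4a1 was thus higher at the internal start and at the site 7.84 kb upstream than at the outermost start.

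Nr4a2, whose product Nurr1 is known best from dopamine neurons, lies on the minus strand at chr2:57106830-57124003 (ENSMUSG00000026826.13). All 4 of its peaks lay inside the gene, from the outermost to the internal start. The peak at the internal start, chr2:57114127-57115637, had a signal of 7.83 and a −log10 p of 149, with its summit 20 bp inside exon 1 of the shorter principal transcript. The peak over the 5′ end, chr2:57123107-57124425, had nearly the same signal (7.49) and a −log10 p of 39.2. In intron 1 between them 2 weaker peaks had signals of 4.25 and 3.77, and 50.5% of the window of the weaker one was repeat-masked. No Nr4a2 peak reached the median signal of the list, 13.2. The pseudoreplicated list added none, and beyond the 3′ end the nearest thresholded peak lay 3882 kb outside the locus.

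Nr4a3, which encodes NOR1, lies on the plus strand at chr4:48045153-48086447 (ENSMUSG00000028341.9). Its 6 peaks fell into an upstream series and 1 isolated site. The upstream peaks lay 15.33, 10.64, 5.30 and 2.24 kb before the 5′ end with signals of 9.43, 11.7, 3.78 and 6.95. The promoter peak, chr4:48044966-48045404, had a signal of 6.72 and a −log10 p of 330. The isolated peak, chr4:48074621-48075388 in intron 7, had the highest signal of all 34 peaks, 23.1, at percentile 91.0 of the list, and a −log10 p of 538 at percentile 92.5. Its nearest neighbour was 29216 bp away, and its window held no CpG. The pseudoreplicated list added 2 peaks, with signals of 3.88 and 2.04.

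Egr1, the most widely studied EGR gene and a readout of MAP kinase signalling, lies on the plus strand at chr18:34859823-34864984 (ENSMUSG00000038418.7). Its 8 peaks had low signals, from 3.61 to 11.9 with a median of 7.26. The highest belonged to the promoter of Reep2, a gene of an endoplasmic reticulum protein, 19.24 kb upstream. Between 9.51 and 3.43 kb upstream, 4 intergenic peaks had signals of 7.01, 7.56, 4.19 and 7.59. The last of them, 3.43 kb upstream, had the highest −log10 p of the locus, 337. At the gene itself, a peak over the 5′ end had a signal of 3.61, the lowest of all 34. The peak with the CArG box and CRE half-site, 60 bp before the start of transcript Egr1-202, had a signal of 7.52 and a −log10 p of 292, and a peak in coding sequence had a signal of 6.12.

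Egr2, an activator of genes that dampen T cell responses, lies on the plus strand at chr10:67535475-67542188 (ENSMUSG00000037868.15). Only 2 thresholded peaks lay in its locus, and the gene's own had the highest −log10 p of the 34. That promoter peak, chr10:67537025-67537974, had a signal of 13.2 at percentile 49.7 and a −log10 p of 684 at percentile 96.3, with its summit 78 bp before the principal start. The other, with a signal of 12.3, lay at the promoter of Ado, a thiol dioxygenase gene, 13.89 kb from the 5′ end of Egr2. The pseudoreplicated list added 3 peaks, with signals of 4.38, 5.84 and 2.17. Beyond the downstream edge of the locus, the next peak lay 4.04 kb farther out with a signal of 23.1.

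Egr3, which overlaps Egr2 in function in T cells, lies on the plus strand at chr14:70077203-70082614 (ENSMUSG00000033730.4). Its 3 upstream peaks lay 11.25, 2.25 and 0.36 kb before the 5′ end with signals of 10.8, 7.40 and 11.3. The nearest had a −log10 p of 322. No thresholded peak lay in the gene body. The strongest peak of the locus, 22.88 kb from the 5′ end with a signal of 20.8, belonged to the promoter of Bin3, a gene of a membrane-curving protein. The pseudoreplicated list added 4 peaks with signals from 2.06 to 6.05. A further interval upstream was left out because its highest summit, with a signal of 17.6, lay 0.113 kb outside the locus.

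Peaks at these genes were low in signal for their −log10 p. The median signal of the 34 peaks was 7.71, against 13.2 for all peaks, and 28 of the 34 lay below that list median. The median −log10 p was 159, against 115 for all peaks, and 20 of the 34 lay above it. Both held for 14 of the 34, against 12.2% of all peaks. Promoter peaks had a median signal of 7.83 (15.4 over all promoter peaks) and a median −log10 p of 244 (232). The other peaks had a median signal of 7.59 (12.1 over all such peaks) and a median −log10 p of 102 (83.9). The median signal depended on the flank: it was 7.51 with 5 kb on either side of the genes and 10.15 with 50 kb.

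Crowding of peaks moved with the low signal. Another peak lay within 5 kb of 25 of the 34, against 41.3% of all peaks. In the whole list, peaks with such a neighbour had a median signal of 9.12 and the rest 16.1, while their median −log10 p was 102 and 127. Among the 25 crowded peaks of the 6 loci 22 (88.0%) lay below the list's median signal, against 75.8% of all crowded peaks. The crowded peaks had a median signal of 7.52, and the 9 others one of 12.3. Of the 25, 11 also had a −log10 p above the median, against 24.0% of all crowded peaks. Of the 9 without a close neighbour, 6 lay below the median signal, against 31.8% of all such peaks. The part of crowding in the low signals was not tested.

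**Figure D4:**
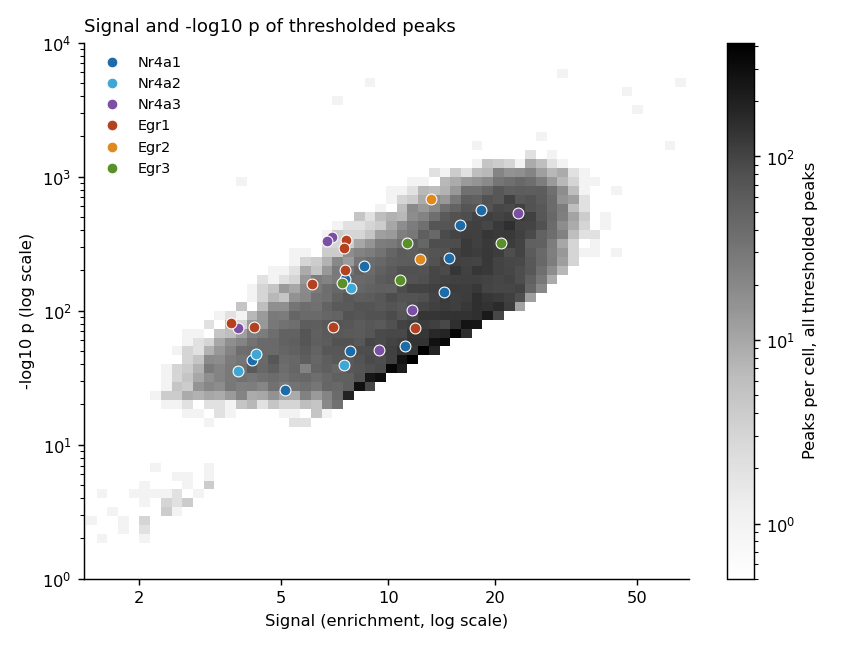
Signal (authors' enrichment, log axis) against −log10 p (log axis) of the thresholded peaks, with all 34610 as a grey density and the 34 peaks of the 6 loci coloured by gene. Most coloured points lie left of the list's median signal of 13.2, and several of Egr1 and Nr4a3, with the Egr2 promoter, lie on the upper left edge of the density.

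The summit windows were richer in GC than those of all peaks, with the larger difference outside promoters. The median GC content was 59.75% against 52.0% for all peaks, and 63.5% at promoter peaks against 62.0% for all promoter peaks. Outside promoters it was 56.5%, against 48.5%. The observed to expected ratio of CpG was 0.815 at promoter peaks (0.758 over all) and 0.359 elsewhere (0.255). The most CpG-rich window was the internal promoter of Nr4a2 (1.14), and the isolated Nr4a3 intron peak stood at 0.

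The 2 inputs of the IDR procedure gave similar strengths at these peaks, as selection by the IDR threshold favours. Agreement between the inputs was therefore partly set in advance, and the ratio over all peaks is not given here. The ratio of the −log10 p in input 1 to that in input 2 ran from 0.556 to 1.88 over the 34 peaks with a median of 1.02, and input 1 was higher at 18. The Egr2 promoter was highest in both, at 335 and 369. The Nr4a3 peak 5.30 kb upstream differed most, at 55.0 and 29.3. The sources used here do not say whether the inputs were the libraries or splits of the reads, so the ratios are no measure of error between libraries. The lowest −log10 IDR among the 34 was 1.36, at the weak Nr4a1 peak in intron 1, where the threshold of the list stood at 1.301. The 10 peaks of the pseudoreplicated list alone lay below it. Of these, 5 ran from 0.788 to 1.08 and the other 5, at Egr2 and Egr3, all stood at 0.477. The 10 belonged to Nr4a3 (2), Egr1 (1), Egr2 (3) and Egr3 (4). Over the whole genome, the pseudoreplicated list held 58871 peaks and the thresholded list 34610.

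**Figure D5:**
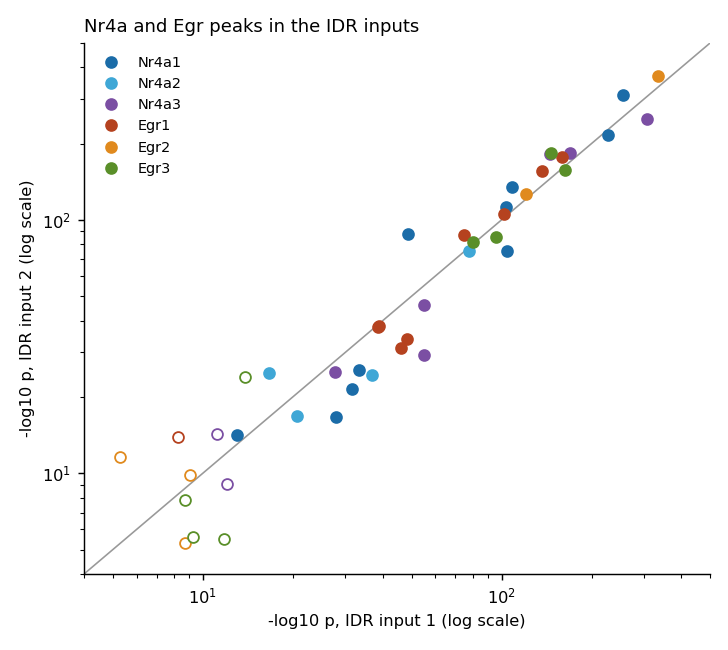
The −log10 p of each peak of the 6 loci in IDR input 1 against IDR input 2 (log axes), with the line of equal values. Filled points are the 34 thresholded peaks and lie near the line from the weakest Nr4a1 peak (13.0 and 14.2) up to the Egr2 promoter (335 and 369), and open points are the 10 peaks of the pseudoreplicated list alone.

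Genes around the 2 families in the same pathway are set beside all coding genes, of which 44.6% had a covered 5′ end and 25.3% at least 4 peaks. A 5′ end covered by a peak is called open here. Of 3 genes that share or curb EGR function, all had an open 5′ end. The corepressor Nab2 had 8 peaks in its locus, and Nab1 and the family member Egr4 had 1 each. Of 12 genes of upstream factors (SRF, its ETS partners, MEF2, CREB and NFAT proteins), 10 had an open 5′ end and 9 had at least 4 peaks, led by Nfatc1 with 19, Elk3 with 15 and Nfatc2 with 9. The 7 genes of the Jun and Fos family, which is induced alongside, all had an open 5′ end, and 5 had at least 4 peaks, led by Fosb and Junb with 7 each and then Fos and Fosl1 with 5.

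Other early response genes held peaks in numbers of the same order. Of 20 such genes, 15 had an open 5′ end (44.6% of all coding genes) and 19 had at least 4 peaks (25.3% of all coding genes), with a median of 6. Dusp1, a phosphatase, and Btg1, an antiproliferative gene, had 9 each, and Dusp2, Btg2, Zfp36 and Irf4 had 8 each. Of 13 genes described as targets of NR4A or EGR proteins in T cells, 12 had an open 5′ end and 12 had at least 4 peaks, beside the same shares of 44.6% and 25.3%. Ikzf2 led with 18 peaks, followed by the ubiquitin ligase gene Cblb with 17 and by Runx1 and the ectonucleotidase gene Entpd1 with 14 each. For the 6 genes themselves, the median was 5 peaks. No gene of these lists was without a peak, whereas 30.2% of coding genes were. The lists differ in locus length, and longer loci hold more peaks.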

How the data were processed

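Per the labels and the authors' file listings, 2 ATAC-seq libraries, technical replicates of 1 biological replicate, were pooled into 3 peak lists on mm10. Not given in the sources used here are the aligner, the caller, their versions and any shift of Tn5 cuts. The deposited signal value is a fold enrichment (ratio) per peak over a background that the sources do not name, and the deposited −log10 p is the authors' own. The authors' −log10 IDR and the −log10 p of the IDR inputs were used as scores. Without read counts in the lists, the depth is unknown.

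The thresholded list was the main set. Lines with 1 interval were reduced to the summit of highest signal (68653 lines to 34610 peaks), and coordinates are 1-based. Promoter means a summit within 1 kb of any TSS in GENCODE M21, and the other classes were exonic, intronic and intergenic in that order. Motifs were searched on both strands of 200 bp windows at the summits. Python 3.11.15 with numpy 2.4.6, pandas 2.3.3, scipy 1.17.1 and pysam 0.24.0 was used, and the functions were tested on simulated data. No p-value was computed because there is 1 sample.

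The 6 genes, 5 other gene lists, 15 motifs and alternatives were chosen with earlier results of these data known. The 6 genes were named with all their thresholded peaks, with genes whose TSS lies within 1 kb of a summit, and with the 3 genes of each list with most peaks and up to 3 with none. Dusp5, and further genes tied in count, were named after their values were seen. Alternatives used the pseudoreplicated list, at least the median signal or −log10 p, every line, loci of 5 or 50 kb, other summits and other window sizes. Some sequences are not reported here.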

Additional observations from a re-analysis of the deposited data

How the results depend on the processing

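Of 179 alternative values, 138 stayed within 1.5 times the count or within the interval of the share, and 41 moved (12 of 105 for motifs, 29 of 74 for the rest). The total of 34 peaks was 6 with signals at or above the median, 20 with those of at least the median −log10 p, 20 with 5 kb on either side and 70 with every line counted. With at least the median signal, Nr4a1 had 4 peaks, Nr4a3 and Egr3 1 each, and Nr4a2, Egr1 and Egr2 0. With at least the median −log10 p, Nr4a1 had 6, Egr1 4, Nr4a3 3 and Nr4a2 1. With 5 kb on either side, Nr4a1 and Egr1 had 5, Nr4a3 3, Egr3 2 and Egr2 1, and with 50 kb Egr2 had 8. With every line, Nr4a1 had 19, Nr4a2 14, Egr1 13, Egr3 10 and Egr2 7. With the pseudoreplicated list, Egr3 had 8 and Egr2 5. Open 5′ ends fell from 4 of the 6 genes to 0 with at least the median signal and to 2 with at least the median −log10 p. With at least the median signal, which left 6 peaks, the shares of CRE, CArG, NFAT, TCF/LEF, E-box and CTCF were 0% and that of NF-kB was 33.3%. In 100 bp windows the share was 0% for CRE and 11.8% for KLF/SP. With 5 kb on either side the shares of ETS, TCF/LEF and CTCF were 0%. The lower counts follow by construction from fewer peaks or a shorter flank, and the higher counts from a longer list, a longer flank or lines counted singly. The shares of ETS, TCF/LEF and CTCF with 5 kb on either side also follow by construction, because every window with these motifs lay farther from its gene. With at least the median signal, the shares of 0% follow by construction too, because every window with these motifs had a lower signal. The same holds for CRE in 100 bp windows, because its only match started 67 bp before the summit. For the shares of NF-kB and KLF/SP the cause was not tested. CArG boxes were in 11.8% of the 34 peaks in 100 bp windows and 17.6% in 400 bp windows, against 0.532% and 1.97% of all peaks, and in 11.4% with the pseudoreplicated list. AP-1, in 0 of the 34 peaks, was found in 6.82% of the peaks of the pseudoreplicated list. The share was 6.0% with 50 kb on either side. In 400 bp windows it was 2.94%, against 10.7% of all peaks. No paired analysis was possible because the peak lists pool the libraries and there is 1 group, and for the same reason leaving out a library was not run. Depth is unknown, and 34 peaks limit every share.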
